A study of Mus musculus with 6 samples.

Results

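The genes described here are 35 components of the transforming growth factor beta (TGF-beta) and bone morphogenetic protein (BMP) pathway in bone marrow-derived macrophages (BMDMs). They were chosen by name, with earlier results of these data known, from the 40481 genes of the deposited count table. They comprise 5 ligands, 2 genes of ligand latency, 11 receptors and co-receptors, 7 SMADs, 6 intracellular regulators and 4 target genes. All 35 symbols were found, each on 1 entry. The libraries came from unstimulated BMDMs of 3 wild-type samples and 3 samples labelled as *Scd2* knockout, 1 library each. The knockout, written *Scd2-m/-m*, joins floxed *Scd2* alleles with the lysozyme M-Cre transgene, whose Cre is made in myelomonocytic cells. *Scd2* encodes a desaturase that turns saturated into monounsaturated fatty acids. Both groups were grown from mouse marrow in medium with serum and CMG-conditioned medium for 5 to 6 days. The labels give no sex, age, day or litter for a library, and the study used male and female adult mice. In all 6 libraries *Xist* was at 657 to 842 CPM and the Y-linked genes *Ddx3y*, *Kdm5d* and *Eif2s3y* had 0 counts. *Uty*, also Y-linked, had 6, 0 and 5 counts in wild-type replicates 1, 2 and 3 and 0 counts in each *Scd2-m/-m* library. The sources used here do not say whether the controls carried Cre or the floxed alleles. Nothing in the labels says that replicates came from separate animals or cultures, so the p-values measure only the spread between these libraries, which may be technical.

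Ligands of this family are secreted in pairs and, for TGF-beta, held in a latent complex until released. A ligand joins type II and type I receptors, and the type I receptor phosphorylates receptor SMADs: *Smad2* and *Smad3* after TGF-beta or activin, *Smad1* and *Smad5* after BMP. These enter the nucleus with *Smad4*. The inhibitory SMADs, *Smad6* and *Smad7*, and the *Id* genes, which encode inhibitors of DNA binding, are known to be induced by the pathway. In macrophages TGF-beta is known for restraining inflammatory genes and for a part in tissue repair.

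The counts summed to between 46285176 and 57629638 per library. Levels are given in CPM, the counts on a gene per 1000000 counts of its library after TMM scaling (factors 0.979 to 1.02), always in the order of replicates 1, 2 and 3. *Scd2* itself stood at 66.9, 77.7 and 62.7 CPM in wild-type libraries and at 59.5, 37.9 and 39.8 CPM in those of *Scd2-m/-m*. No value of 1 group lay within the other, but the first *Scd2-m/-m* library was just under the lowest wild-type one, and the log2 fold change, always given as *Scd2-m/-m* minus wild type, was -0.59 (SE 0.19, false discovery rate (FDR) 0.1, edgeR's quasi-likelihood test). *Lyz2*, the macrophage gene at whose locus the M-Cre is inserted, was at 39.7% of its wild-type mean. All 10 macrophage markers examined passed the filter on low counts, and 1 was higher and 5 were lower in *Scd2-m/-m*. Markers of other cells also moved. The summed CPM of 12 genes of dividing cells ran from 56.2 to 65.8 in wild-type libraries and from 163 to 176 in those of *Scd2-m/-m*, and all 12 were higher. The sum of 10 monocyte and progenitor markers ran from 47.9 to 68.1 and from 146 to 207 CPM (7 higher), and that of 10 neutrophil markers from 21.7 to 25.6 and from 33.9 to 43.7 CPM (5 higher). The sum of 8 endothelial markers ran from 47.4 to 53.7 and from 74.4 to 92.2 CPM (1 higher, *Cldn5* at 0 counts throughout). For 10 fibroblast and stromal markers it ran from 4.44 to 7.49 and from 5.69 to 5.95 CPM, with 0 of 4 tested genes called by edgeR (1 at an unadjusted p below 0.05), DESeq2 or limma-voom and 1 by limma-voom with quality weights. It ran for 8 lymphocyte and natural killer markers from 0.322 to 0.737 and from 1.02 to 1.29 CPM (1 higher, *Ncr1* and *Trbc2* at 0 counts). The part of these cells in the values below was not tested, and in bulk RNA fewer cells of a type cannot be told apart from less RNA per cell.

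More members fell than rose. Because the members were chosen with earlier results of these data known, the shares below describe this list only. Of the 35 genes, 32 passed the filter, and 16 of these (50%) had an FDR below 0.05, against 17.5% of all 14778 tested genes. Of the 16, 15 fell in *Scd2-m/-m* (46.9% of members tested, against 7.84% of all genes) and 1 rose (all genes 9.65%). The fold change was below 0 for 29 of the 32, with a median log2 fold change of -0.23 against 0.00 over all genes. In 21 of the 32 (65.6%) the groups did not overlap, against 34.9% of all genes, and *Scd2-m/-m* was the lower group in 19 of these (all genes 17.0%) and the higher group in 2 (all genes 17.9%). Most of the falls were small. With an absolute log2 fold change above 1 also asked for, 3 members (9.38%, all genes 2.84%) were called: *Tgfb3*, *Id1* and *Id3*. At an FDR below 0.01 the count was 4 of 32 (12.5%, all genes 9.01%). The count at an FDR below 0.05 depended on single libraries. It was 6 of 33 (18.2%, all genes 9.83%) without wild-type replicate 2, 5 of 32 (15.6%, all genes 9.53%) without *Scd2-m/-m* replicate 2, and 11 of 33 (33.3%, all genes 17.0%) without *Scd2-m/-m* replicate 1, the library with the most *Scd2* of its group. Of the 16 called genes, *Smurf1*, *Id1* and *Tgfbi* passed the test with each library left out in turn, and the fold change of no called gene turned its direction.

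**Figure D1:**
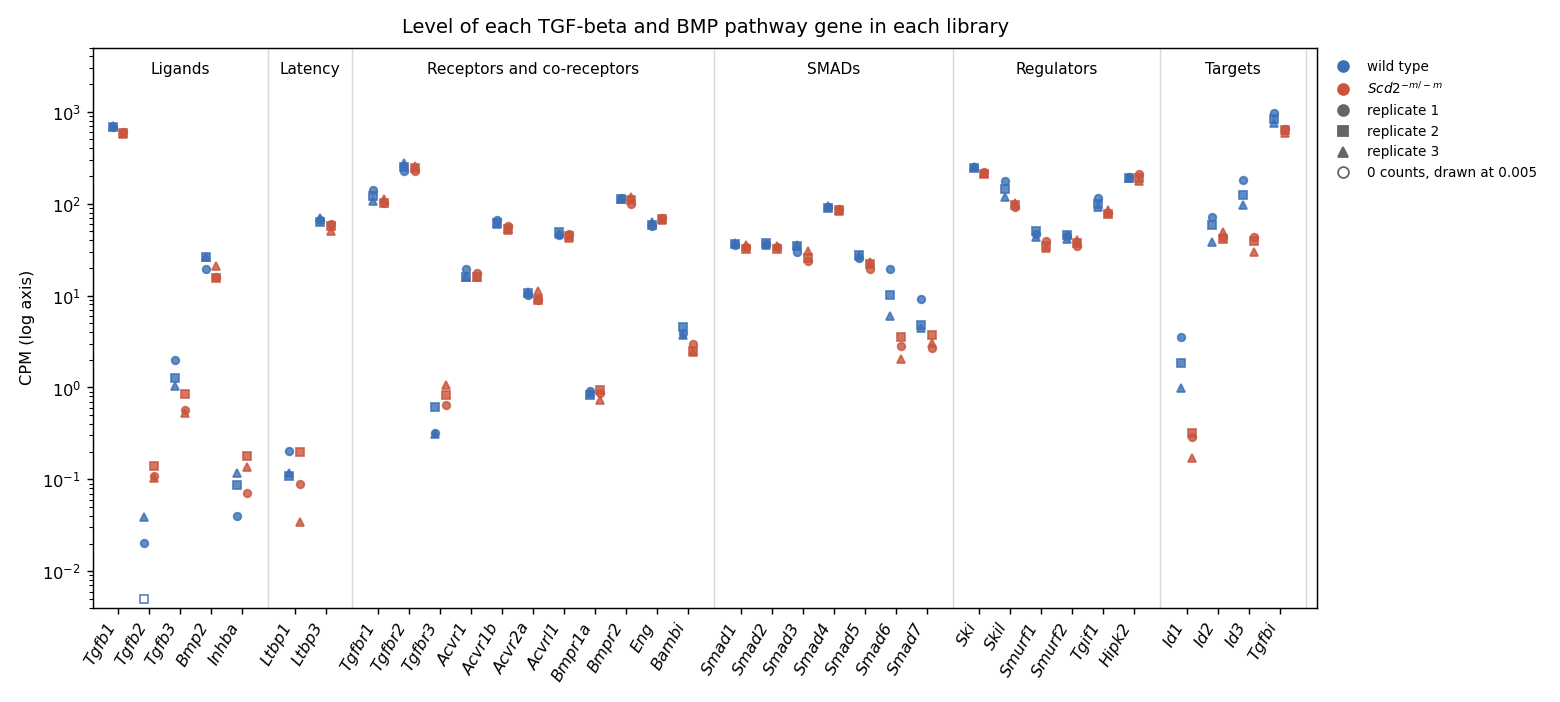
Level of each of the 35 genes in each library, in CPM on a log axis, grouped by role. Blue marks wild-type and red *Scd2-m/-m* libraries, the marker shape gives the replicate, and the open square is *Tgfb2* at 0 counts, drawn at 0.005. The 2 groups lie close together for most receptors and far apart for *Id1*, *Id3* and *Smad6*.

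**Figure D2:**
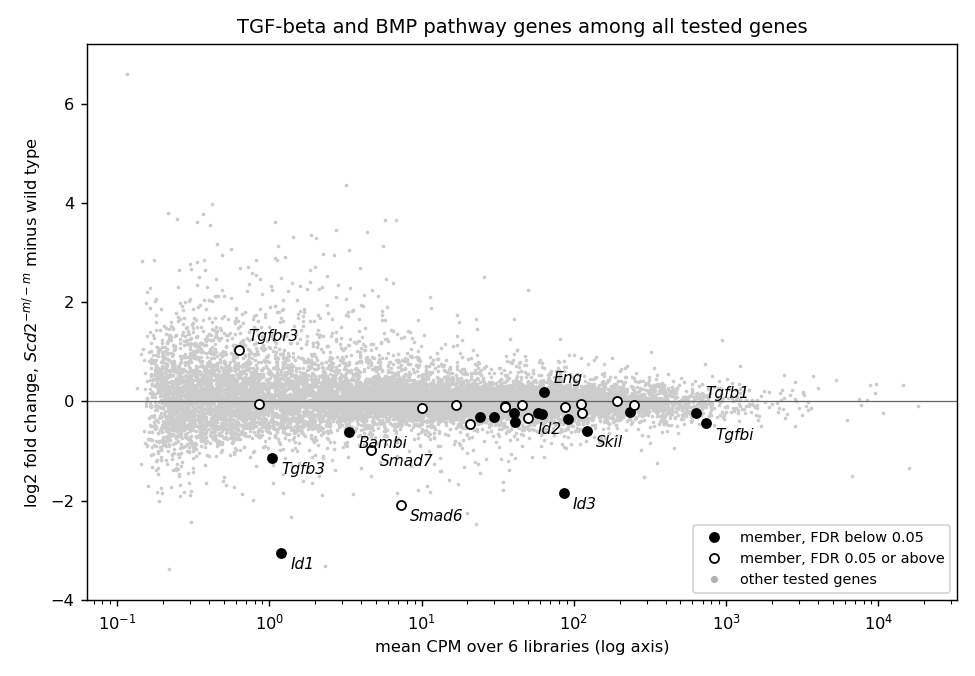
Log2 fold change (*Scd2-m/-m* minus wild type) against the mean CPM of the 6 libraries (log axis) for all 14778 tested genes in grey, with the 32 tested members as filled (FDR below 0.05) or open circles. *Id1* at -3.04 and *Id3* at -1.83 lie near the lower edge of the cloud at their level, and *Eng* is the filled circle above 0.

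Of the 4 target genes 3 were called lower (75.0%, all genes 7.84%), and *Id1* and *Id3* had the largest falls among the called members. *Id1* (chr2:152736251-152737410, GRCm38, plus strand), an inhibitor of basic helix-loop-helix factors and a known BMP target, stood at 3.56, 1.86 and 0.983 CPM in wild-type and at 0.287, 0.318 and 0.172 CPM in *Scd2-m/-m*. Its groups did not overlap, although it rested on only 10 to 16 counts in the *Scd2-m/-m* libraries. *Id1* fell by 3.04 on the log2 scale (SE 0.48, FDR 0.00172, edgeR's quasi-likelihood test), and the *Scd2-m/-m* mean was 12.1% of the wild-type mean. *Id3* (chr4:136143497-136145755, plus strand), a second gene of the family, stood at 181, 125 and 96.3 CPM in wild-type and at 43.3, 39.5 and 30.0 CPM in *Scd2-m/-m*. Every *Scd2-m/-m* library was under every wild-type library by a wide gap. *Id3* fell by 1.83 on the log2 scale (SE 0.30, FDR 0.0199), to 28.0% of its wild-type mean, but its call was lost without wild-type replicate 2 or any 1 *Scd2-m/-m* library (FDR 0.0573 to 0.0733, log2 fold change -1.95 to -1.70).

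*Tgfbi* (chr13:56609523-56639562, plus strand), which encodes a matrix protein named for its induction by TGF-beta, was the most abundant target, at 959, 835 and 754 CPM in wild-type and 651, 637 and 592 CPM in *Scd2-m/-m*. Its groups did not overlap. *Tgfbi* fell by 0.44 on the log2 scale (SE 0.08, FDR 0.00222). *Id2* (chr12:25093799-25097140, minus strand), the third gene of the *Id* family here, is given in full because of values already seen, as are *Smad6*, *Smad7*, *Bmp2* and *Tgfbr3* below. It stood at 71.0, 58.2 and 38.3 CPM in wild-type and 43.0, 41.7 and 48.9 CPM in *Scd2-m/-m*. Here the groups overlapped, since wild-type replicate 3 was the lowest of the 6 libraries. The log2 fold change was -0.33 (SE 0.24, FDR 0.432), and it was -0.54 (FDR 0.00109) without that library and -0.12 (FDR 0.715) without wild-type replicate 1.

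The *Id* genes did not keep their proportions between the genotypes. Per kilobase of exon, *Id3* made up 75.8%, 73.3% and 76.4% of the 3 genes in wild-type and 57.5%, 56.0% and 45.3% of them in *Scd2-m/-m*. The share of *Id2* went from 23.1% ± 1.71 to 46.5% ± 6.75 (SD, n = 3 and 3). The share of *Id1* went from 1.73% ± 0.552 to 0.561% ± 0.149. The log2 ratio of *Id3* to *Id2* counts, taken within a library, was 1.35, 1.10 and 1.33 in the wild-type libraries. In those of *Scd2-m/-m* it was 0.01, -0.08 and -0.70. On this log2 scale the wild-type libraries thus lay between 1.10 and 1.35. The levels of *Id3* and *Id2* alone differed 1.88-fold and 1.85-fold among them, given as plain folds and not in log2. The log2 ratio of *Id3* to *Id2* had a mean difference of -1.52, and its groups did not overlap. That of *Id1* to *Id2* differed by -2.62. For both ratios the two-sided exact permutation test gave p = 0.1, the smallest p that 3 against 3 libraries allow, and these ratios were chosen after the values were seen.

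**Figure D3:**
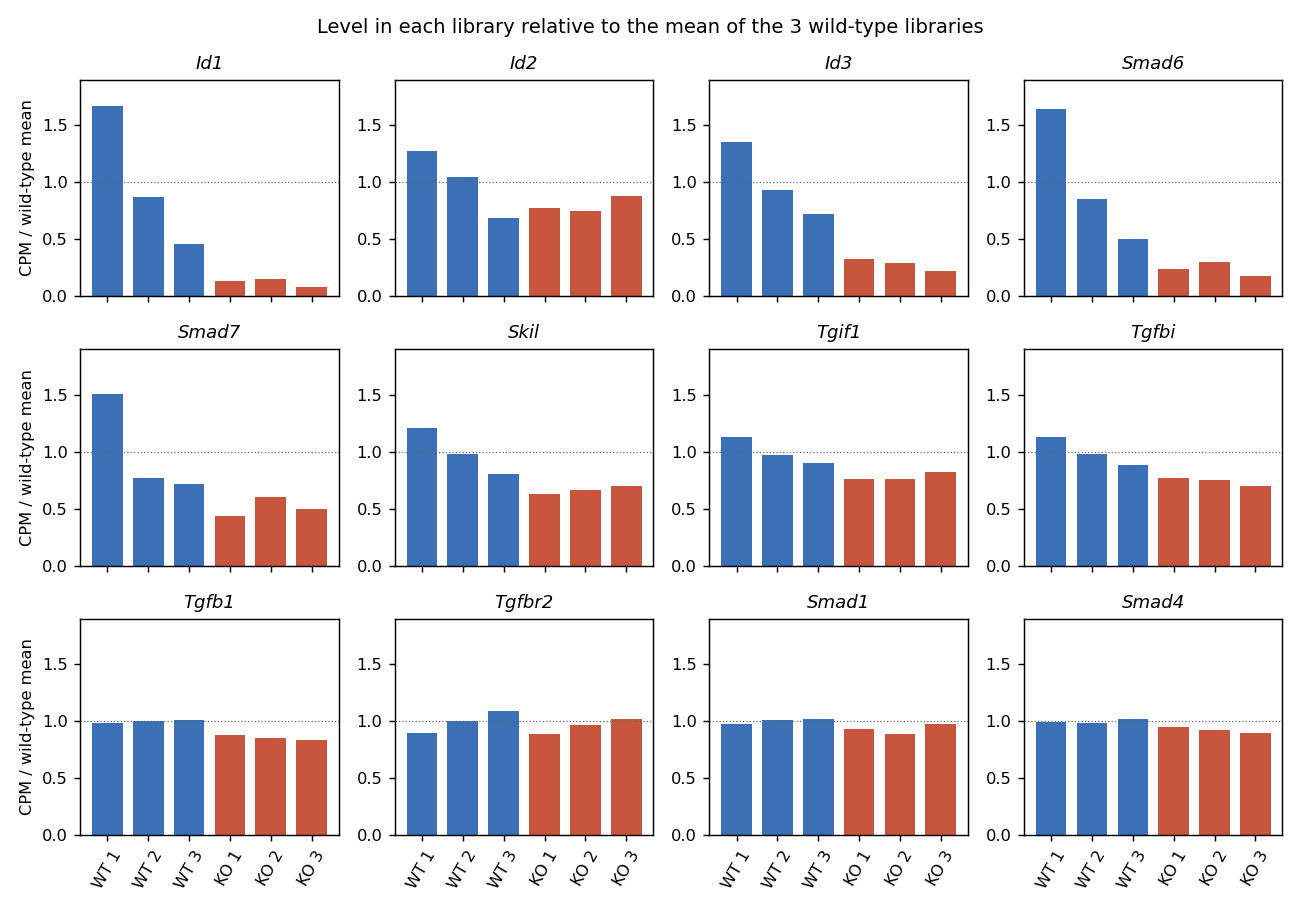
CPM of 12 members in each library divided by the mean of the 3 wild-type libraries, which the dotted line marks (axis from 0). WT is wild-type (blue) and KO is *Scd2-m/-m* (red), and the bars show that wild-type replicate 1 is highest and replicate 3 lowest for *Id1*, *Id2*, *Id3*, *Smad6*, *Smad7*, *Skil*, *Tgif1* and *Tgfbi*, while *Tgfb1*, *Smad1* and *Smad4* vary little.

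The wild-type libraries themselves differed in these genes. The highest wild-type library exceeded the lowest 3.62-fold for *Id1*, 3.28-fold for *Smad6*, 2.09-fold for *Smad7*, 1.91-fold for *Tgfb3*, 1.88-fold for *Id3*, 1.85-fold for *Id2* and 1.5-fold for *Skil*. The median of this ratio was 1.12 over the 11440 tested genes above 1 CPM in every wild-type library, and 1.49% of them exceeded 1.8. *Id1*, at 0.983 CPM in wild-type replicate 3, is not among those genes. *Tgfb3*, at 1.04 CPM in the same library, is at their lower limit, where low counts widen the ratio. Wild-type replicate 1 was the highest and replicate 3 the lowest of the group in all 4 target genes and in 12 of the 32 tested members, against 22.1% of all genes and 30.6% of the genes called lower. The *Scd2-m/-m* libraries spread less for *Id2* (1.17-fold) and *Id3* (1.44-fold).

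The promoters of targets and SMADs are shown because SMAD proteins bind short DNA words, of which 2 were searched on both strands in the 250 bases before each transcript start: the core of the BMP response element, GGCGCC, and the SMAD box, GTCT (AGAC on the other strand). The RefSeq promoter table (GRCm38.p6) held 34 promoters of 25 members, some of which have more than 1 start. *Id1*, *Skil*, *Bambi*, *Tgfb3*, *Smad2*, *Smad4* and *Smad7* were among the members without an entry. GGCGCC was found in 8 of the 34 (23.5%), against 9.59% of 32851 promoters, and GTCT in 27 (79.4%), against 82.9%. GGCGCC consists only of G and C, and these shares were not matched for the G and C content of the promoters. The members with GGCGCC were *Ski*, *Smad5*, *Smurf2* and *Tgfbi*, which were called, and *Bmpr1a*, *Bmpr2*, *Id2* and *Tgfbr1*, which were not. The stretches printed here 5′ to 3′ leave out annotated exons, and capitals mark the words. The *Id2* stretch, chr12:25096254-25096342 (minus strand), lies before the RefSeq start but inside the gene's annotated span, between exons of a longer transcript, and 161 of the 250 bases of that window are exonic. The others are chr13:56609336-56609522 (plus) for *Tgfbi*, chr9:64022060-64022309 (minus) for *Smad6* and chr9:63757995-63758244 (minus) for *Smad3*.
Id2: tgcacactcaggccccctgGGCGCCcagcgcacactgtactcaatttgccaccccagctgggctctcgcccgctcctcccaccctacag
Tgfbi: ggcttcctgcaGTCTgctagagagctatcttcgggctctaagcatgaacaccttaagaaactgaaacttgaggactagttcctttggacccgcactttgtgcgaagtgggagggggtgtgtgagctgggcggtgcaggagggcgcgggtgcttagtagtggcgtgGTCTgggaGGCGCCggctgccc
Smad6: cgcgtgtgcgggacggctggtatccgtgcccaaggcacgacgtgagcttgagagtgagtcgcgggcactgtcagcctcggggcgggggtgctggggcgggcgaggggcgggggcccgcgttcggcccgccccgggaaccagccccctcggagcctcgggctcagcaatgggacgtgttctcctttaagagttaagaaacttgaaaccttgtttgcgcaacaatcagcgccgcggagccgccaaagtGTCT
Smad3: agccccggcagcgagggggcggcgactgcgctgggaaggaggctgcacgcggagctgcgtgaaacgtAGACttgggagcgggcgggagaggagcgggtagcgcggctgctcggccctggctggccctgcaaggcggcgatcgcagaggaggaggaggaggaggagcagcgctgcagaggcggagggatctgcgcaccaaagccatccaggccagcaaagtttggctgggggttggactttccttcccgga

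*Tgfbi*, which fell, and *Id2*, which did not pass the test, each held GGCGCC, 77 and 231 bases before the start. *Tgfbi* also held GTCT 239 and 85 bases before it, and *Id2* AGAC 23 bases before it, in the part not printed. *Smad6* and *Smad3* held a single GTCT or AGAC, 4 and 183 bases before the start, and no GGCGCC in this window. The window of *Id3* held GTCT or AGAC 166 and 68 bases before the RefSeq start and no GGCGCC, but it lies inside the first exon of a longer annotated transcript and is not printed. A match describes letters in a window and not a bound site.

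Among the SMADs, all 7 fold changes were below 0. The *Scd2-m/-m* libraries were under all wild-type libraries in 6 of 7 (85.7%, all genes 17.0%), but the falls passed the test in 2 (28.6%, all genes 7.84%). *Smad5* (chr13:56703010-56742377, plus strand), a receptor SMAD of the BMP branch, stood at 25.8, 27.7 and 26.7 CPM in wild-type and 19.7, 22.1 and 23.0 CPM in *Scd2-m/-m*. These groups did not overlap. It fell by 0.31 on the log2 scale (SE 0.08, FDR 0.0119), with the call lost without wild-type replicate 2 (FDR 0.0752). *Smad3* (chr9:63646767-63757994, minus strand), of the TGF-beta branch, stood at 29.5, 34.3 and 35.3 CPM in wild-type and 24.0, 25.7 and 30.4 CPM in *Scd2-m/-m*. The highest *Scd2-m/-m* library was above the lowest wild-type library. Its log2 fold change was -0.30 (SE 0.09, FDR 0.0375), and the call was lost without wild-type replicate 2 or 3 or *Scd2-m/-m* replicate 1 or 2 (FDR 0.111 to 0.156).

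*Smad2*, the partner of *Smad3*, stood at 36.2, 37.4 and 35.8 CPM in wild-type and 33.8, 32.2 and 34.9 CPM in *Scd2-m/-m* (log2 fold change -0.12, FDR 0.236, edgeR). *Smad4*, shared by both branches, stood at 91.3, 90.0 and 93.5 CPM in wild-type and 86.7, 84.5 and 82.4 CPM in *Scd2-m/-m* (log2 fold change -0.12, FDR 0.184). *Smad1* had a log2 fold change of -0.10 (FDR 0.320). These 3 SMADs differed little within each genotype, and their groups did not overlap.

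The inhibitory SMADs had larger differences and larger spreads. *Smad6* (chr9:63953076-64022059, minus strand), an inhibitor mainly of BMP signaling, stood at 19.4, 10.1 and 5.92 CPM in wild-type and 2.79, 3.54 and 2.06 CPM in *Scd2-m/-m*. Its groups did not overlap and the *Scd2-m/-m* mean was 23.7% of the wild-type mean. With the wide wild-type spread the log2 fold change of -2.08 (SE 0.54) did not pass the test of edgeR (FDR 0.0704). It passed without wild-type replicate 1 (-1.52, FDR 0.00193) or 3 (-2.40, FDR 0.00770), not without any other 1 library (FDR 0.148 to 0.210), and in DESeq2 (FDR 0.00118) and limma-voom (FDR 0.00878). *Smad7*, an inhibitor of both branches, stood at 9.26, 4.72 and 4.42 CPM in wild-type and 2.67, 3.70 and 3.06 CPM in *Scd2-m/-m*. Wild-type replicate 1 stood apart from the other 2. The log2 fold change of -0.97 (SE 0.29, FDR 0.0582) was -0.54 without that library (FDR 0.0385), and it was -1.16 without wild-type replicate 3 (FDR 0.0126), with an FDR of up to 0.217 without another library. *Smad7* passed in DESeq2 (FDR 4.14e-04) and limma-voom (FDR 0.0356) as well. Within libraries, the log2 ratio of *Smad6* to *Smad1* counts was -0.87, -1.87 and -2.65 in the wild-type group. It was -3.61, -3.20 and -4.10 in *Scd2-m/-m*, a mean difference of -1.84 (two-sided exact permutation test, p = 0.1, the lowest this design allows), and this ratio too was chosen after its values were seen.

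Among the ligands, *Tgfb1* (chr7:25687002-25705077, plus strand), the main TGF-beta of immune cells, stood at 679, 690.2 and 692 CPM in wild-type and 606, 587 and 573 CPM in *Scd2-m/-m*. The libraries of each genotype lay close together and the groups did not overlap. *Tgfb1* fell by 0.22 on the log2 scale (SE 0.06, FDR 0.0180), and its call was lost without replicate 2 of either group (FDR 0.0893 and 0.0971). *Tgfb3* (chr12:86056745-86079041, minus strand) stood at 1.99, 1.28 and 1.04 CPM in wild-type and 0.573, 0.855 and 0.533 CPM in *Scd2-m/-m*, from 31 to 99 counts. Its groups did not overlap. On the log2 scale the fold change was -1.14 (SE 0.30, FDR 0.0183), with the call lost without wild-type replicate 1 (-0.83, FDR 0.0910) or *Scd2-m/-m* replicate 1 or 3 (FDR 0.0560 and 0.0717). Transcripts annotated on the opposite strand share up to 7.60% of its exonic length, and the sources used here do not say whether counting used strand.

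*Bmp2* (chr2:133552159-133562885, plus strand), the 1 BMP ligand in the list, stood at 19.3, 26.1 and 26.2 CPM in wild-type and 16.0, 15.4 and 21.2 CPM in *Scd2-m/-m*. The groups overlapped through wild-type replicate 1 and *Scd2-m/-m* replicate 3. A log2 fold change of -0.45 (SE 0.15) did not pass the test (FDR 0.0793). It passed without wild-type replicate 1 (FDR 0.00347) or *Scd2-m/-m* replicate 3 (FDR 0.0108), with an FDR of up to 0.227 without another library. *Tgfb2* had 1, 0 and 2 counts in wild-type and 6, 7 and 6 counts in *Scd2-m/-m*, and *Inhba*, which encodes the activin A subunit, had 2, 4 and 6 and 4, 9 and 8 counts. Both were too low to be tested.

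Latency genes encode proteins that hold TGF-beta in the matrix. *Ltbp3* (chr19:5740904-5758532, plus strand) stood at 67.0, 63.4 and 69.4 CPM in wild-type and 60.7, 56.5 and 50.8 CPM in *Scd2-m/-m*, without overlap. It fell by 0.25 on the log2 scale (SE 0.07, FDR 0.0275), but the call was lost without any 1 library other than *Scd2-m/-m* replicate 1 (FDR 0.0515 to 0.101). *Ltbp1* had between 2 and 10 counts per library and was not tested.

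The receptors had a median log2 fold change of -0.06 over 11 genes, with 3 called (27.3%, all genes 17.5%). *Tgfbr1*, the type I TGF-beta receptor, stood at 140.3, 121 and 107 CPM in wild-type and 102, 101 and 112 CPM in *Scd2-m/-m*. The groups overlapped, and the log2 fold change was -0.23 (SE 0.09, FDR 0.0982), or -0.32 (FDR 0.0119) without wild-type replicate 3 and -0.12 (FDR 0.325) without wild-type replicate 1. *Tgfbr2*, the type II TGF-beta receptor, stood at 227, 254 and 276 CPM in wild-type and 225, 243 and 257 CPM in *Scd2-m/-m*. The groups overlapped almost fully (log2 fold change -0.06, SE 0.08, FDR 0.625). *Bmpr2*, the type II BMP receptor, stood at 115, 112 and 111 CPM in wild-type and 99.7, 109.8 and 119 CPM in *Scd2-m/-m*. Its *Scd2-m/-m* libraries lay on both sides of the wild-type ones (log2 fold change -0.04, SE 0.07, FDR 0.719).

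The type I receptor *Acvr1b*, which serves activin, stood at 66.6, 61.7 and 60.4 CPM in wild-type and 56.7, 53.6 and 51.4 CPM in *Scd2-m/-m*, without overlap (chr15:101174067-101213684, plus strand). It fell by 0.22 on the log2 scale (SE 0.06, FDR 0.0289), with the call lost without wild-type replicate 1 or 2 or *Scd2-m/-m* replicate 2 or 3 (FDR 0.0836 to 0.124). *Bambi*, a pseudoreceptor that lacks the kinase domain and blocks signaling, stood at 3.91, 4.53 and 3.72 CPM in wild-type and 2.99, 2.47 and 2.46 CPM in *Scd2-m/-m*. All *Scd2-m/-m* libraries were under the wild-type ones. *Bambi* fell by 0.62 on the log2 scale (SE 0.15, FDR 0.0134), and its call was lost without replicate 2 of either group (FDR 0.0789 and 0.0701).

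*Eng* (chr2:32646595-32682669, plus strand), which encodes the co-receptor endoglin, was the 1 member that rose. It stood at 57.5, 58.9 and 62.6 CPM in wild-type and 70.1, 67.7 and 67.1 CPM in *Scd2-m/-m*, without overlap. The log2 fold change was 0.20 (SE 0.06, FDR 0.0380), and the call was lost without wild-type replicate 1 or 2 or *Scd2-m/-m* replicate 1 or 2 (FDR 0.0742 to 0.148). Endoglin is also known from endothelial cells. Their summed markers were higher in *Scd2-m/-m*, and *Vwf* made up most of the sum (43.0 and 75.0 CPM on average in the 2 groups). *Kdr* averaged 7.01 and 8.53 CPM, higher in *Scd2-m/-m* without overlap (FDR 0.0690). *Cdh5*, from 19 to 29 counts, averaged 0.574 and 0.366 CPM, lower in *Scd2-m/-m* without overlap (FDR 0.205). *Egfl7* averaged 0.184 and 0.205 CPM. *Tie1*, *Emcn* and *Tek* averaged at most 0.0774 CPM in either group, and *Cldn5* had 0 counts. The part of endothelial cells in the rise of *Eng* was not tested. *Tgfbr3*, which encodes the co-receptor betaglycan, stood at 0.322, 0.607 and 0.315 CPM in wild-type and 0.645, 0.835 and 1.07 CPM in *Scd2-m/-m*, from 16 to 62 counts. The groups did not overlap, but the log2 fold change of 1.04 (SE 0.36) did not pass the test (FDR 0.0612). It passed without wild-type replicate 2 (FDR 0.0382) or *Scd2-m/-m* replicate 1 (FDR 0.0494), with an FDR of up to 0.214 without another library. The other 4 receptors overlapped between the groups. *Acvr1* (15.7 to 19.6 CPM over the 6 libraries), *Acvrl1* (42.2 to 48.6 CPM) and *Bmpr1a* (0.722 to 0.935 CPM) encode type I receptors and *Acvr2a* (8.90 to 11.2 CPM) a type II receptor. Their log2 fold changes were between -0.13 and -0.05, with FDRs of 0.460 to 0.929.

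**Figure D4:**
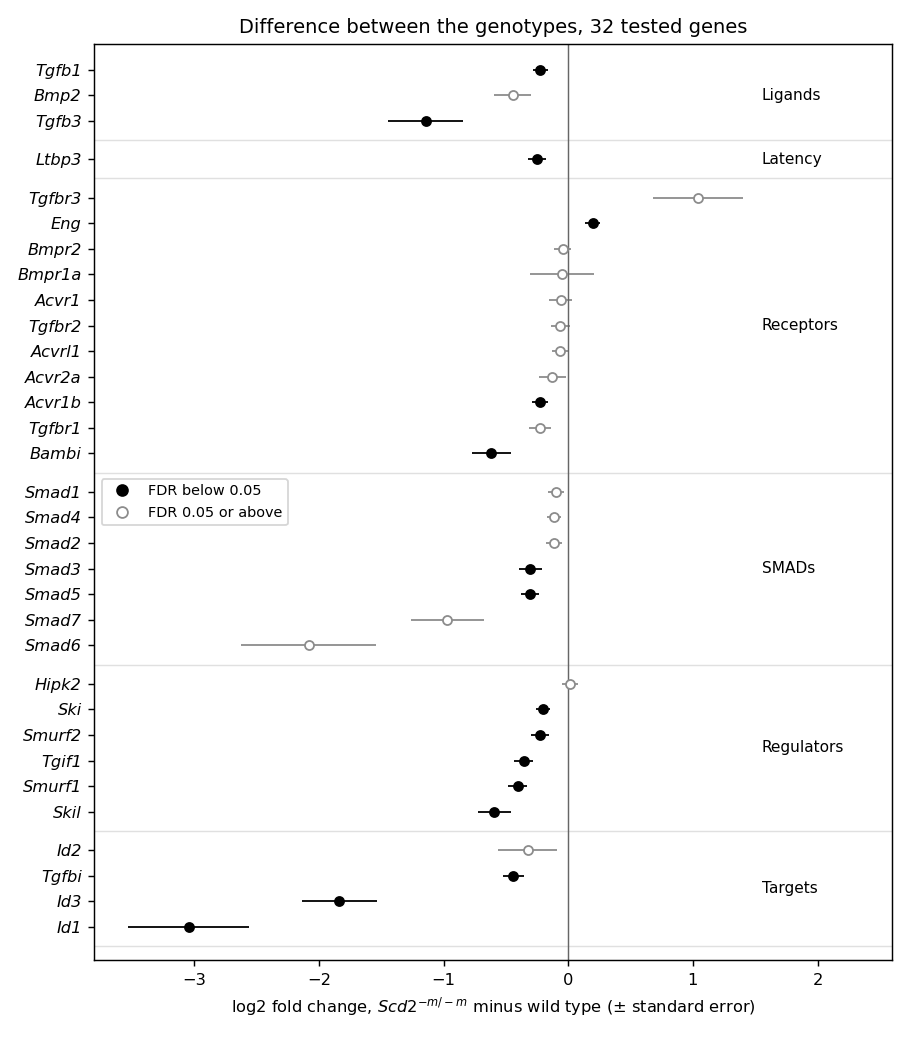
Log2 fold change (*Scd2-m/-m* minus wild type) of the 32 tested genes by role, with bars of 1 standard error. Filled circles have an FDR below 0.05. Of the 29 genes left of 0, 15 are filled, and *Eng* is the single filled circle to the right.

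The regulators were called lower in 5 of 6 cases (83.3%, all genes 7.84%). *Smurf1* (chr5:144876495-144965847, minus strand), a ubiquitin ligase that marks SMADs and receptors for degradation, stood at 47.2, 50.5 and 43.5 CPM in wild-type and 38.8, 35.02 and 33.0 CPM in *Scd2-m/-m*. The groups did not overlap, and the log2 fold change was -0.40 (SE 0.08, FDR 0.00243). *Smurf2* (chr11:106820066-106920715, minus strand), its relative, stood at 44.1, 45.9 and 41.4 CPM in wild-type and 34.4, 37.5 and 40.4 CPM in *Scd2-m/-m*. The groups were only just apart, and the log2 fold change of -0.23 (SE 0.07, FDR 0.0451) lost its call without wild-type replicate 1 or 2 or *Scd2-m/-m* replicate 1 or 2 (FDR 0.0865 to 0.199), in limma-voom (FDR 0.0522) and with the counts halved (FDR 0.0506).

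*Skil* (chr3:31095058-31122577, plus strand), a SMAD co-repressor that TGF-beta is known to induce, stood at 177, 143 and 118 CPM in wild-type and 91.5, 96.8 and 102 CPM in *Scd2-m/-m*. It had the largest fall of the class (log2 fold change -0.59, SE 0.13, FDR 0.0208), without overlap, and the call was lost without wild-type replicate 2 or any 1 *Scd2-m/-m* library (FDR 0.0588 to 0.106). Its paralog *Ski* (chr4:155154075-155222592, minus strand) stood at 254, 247 and 248 CPM in wild-type and 221, 213 and 217 CPM in *Scd2-m/-m*. These libraries lay close together within each group (log2 fold change -0.20, SE 0.05, FDR 0.0207), and the call was lost without replicate 2 of either group (FDR 0.0833 and 0.128). *Tgif1* (chr17:70844205-70853546, minus strand), a homeobox co-repressor of SMADs, stood at 116, 100.2 and 92.6 CPM in wild-type and 78.7, 78.0 and 84.6 CPM in *Scd2-m/-m*. Its groups did not overlap. It fell by 0.36 on the log2 scale (SE 0.08, FDR 0.00592), and lost its call without *Scd2-m/-m* replicate 2 (FDR 0.0522). *Hipk2*, a nuclear kinase that acts on such co-repressors, had a log2 fold change of 0.01 (SE 0.07, FDR 0.916).

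Levels were compared between genes per kilobase of exon. In wild-type libraries *Tgfb1* stood at 136 ± 1.43 CPM per kilobase (SD, n = 3), *Bmp2* at 6.71 ± 1.11 and *Tgfb3* at 0.425 ± 0.146. *Tgfb1* made up 99.7% of the 3 TGF-beta genes in wild-type and 99.8% of them in *Scd2-m/-m*. The order of the receptors was *Tgfbr2* (30.8 CPM per kilobase), *Tgfbr1* (18.8), *Eng* (14.7), *Acvr1b* (14.2), *Acvrl1* (10.99), *Bmpr2* (6.28), *Acvr1* (3.54), *Acvr2a* (1.86), *Bambi* (0.798), *Bmpr1a* (0.136) and *Tgfbr3* (0.0633). *Eng* and *Acvr1b* overlapped in wild-type libraries. *Smad4* led the SMADs at 24.7 CPM per kilobase, and *Smad3* (5.96 ± 0.558) and *Smad1* (5.82 ± 0.141) did not differ beyond their spread. The share of *Smad6* among the 7 SMADs was 7.37% ± 4.05 for wild-type and 2.12% ± 0.571 for *Scd2-m/-m* (SD, n = 3 and 3), without overlap.

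**Figure D5:**
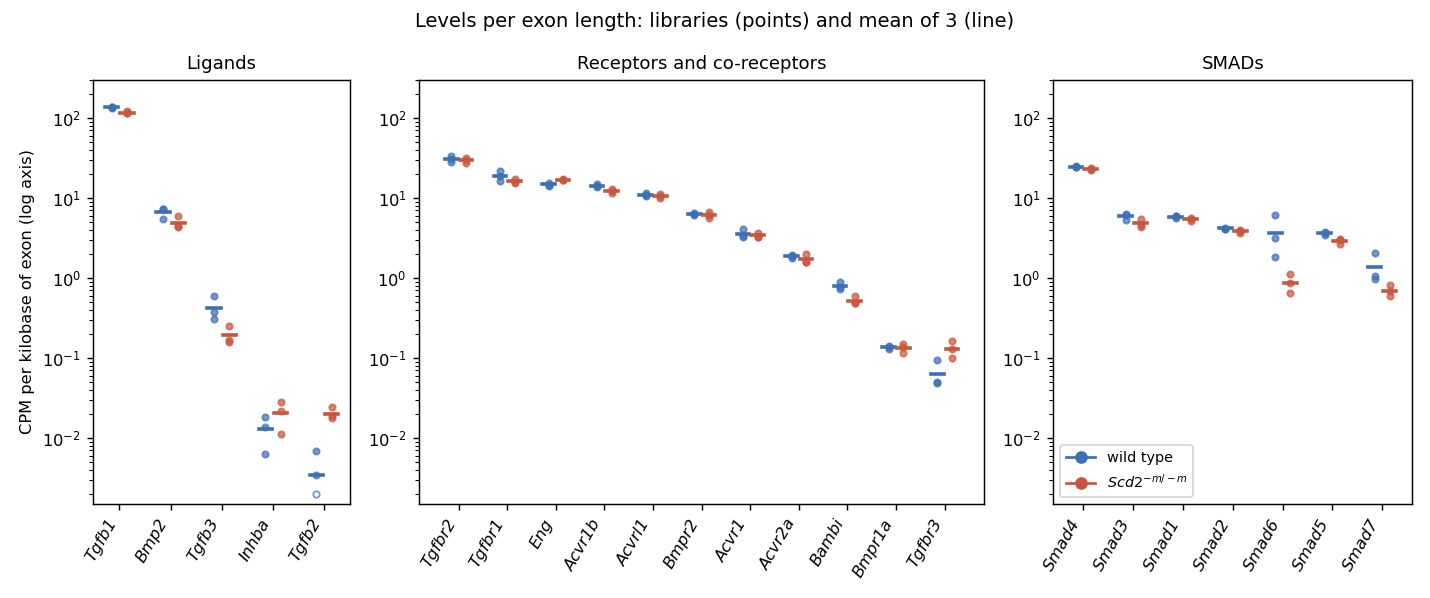
CPM per kilobase of exon (log axis) for ligands, receptors and SMADs, ordered by the wild-type mean. Points are libraries (blue wild-type, red *Scd2-m/-m*), lines are means of 3, and the open circle is *Tgfb2* at 0 counts, drawn at 0.002. *Tgfb1* lies above every other gene, and the gap between the genotypes is widest for *Smad6* among the SMADs.

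A wider list of 77 other genes of the pathway was read from the same fit. Of its 44 tested genes, 9 passed the test (20.5%, against 17.5% of all genes), 3 higher and 6 lower, and the median log2 fold change was -0.07. Of its 7 tested target genes 0 passed edgeR's test, with 2 at an unadjusted p below 0.05, and 2 passed in DESeq2, 1 in limma-voom and 2 in limma-voom with quality weights. The largest fall was that of *Thbs1*, whose product can release latent TGF-beta, at 397, 438 and 443 CPM in wild-type and 139, 144 and 160.1 CPM in *Scd2-m/-m* (log2 fold change -1.53, SE 0.07, FDR 1.15e-08). *Rgmb*, a BMP co-receptor (-0.46, FDR 3.63e-04), *Ltbp2* (-1.41, FDR 0.0220), *Pmepa1*, an inhibitor induced by TGF-beta (-1.13, FDR 0.0226), and the co-activator *Ep300* (-0.20, FDR 0.0243) also fell. *Nedd4l*, a ubiquitin ligase of SMADs (log2 fold change 0.48, FDR 1.31e-04), *Cd109*, a TGF-beta co-receptor that dampens signaling (0.85, FDR 0.00124), and the distant ligand *Gdf15* (0.78, FDR 0.00335) rose. The calls of *Ltbp2*, *Pmepa1* and *Ep300* were lost without some single libraries, *Ltbp2* and *Ep300* without replicate 2 of either group and *Pmepa1* without wild-type replicate 1 or *Scd2-m/-m* replicate 1 or 3. *Pmepa1* was also not called in limma-voom with quality weights (log2 fold change -0.61, FDR 0.115).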

How the data were processed

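RNA sequencing libraries of 3 wild-type and 3 *Scd2-m/-m* BMDM samples were compared. The authors selected poly(A) RNA, sequenced it on an Illumina NovaSeq and used STAR for alignment to GRCm38. The deposited values are unnormalized whole-number counts on each gene. How they were counted, with or without strand, and whether 1 count is a read or a pair is not stated in the labels or the methods. A second deposited table holds the authors' own comparison made with edgeR and limma (log2 fold changes, confidence limits, p-values, statistics and log2 CPM) and was not used.

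From 40757 entries, 276 repeats of a gene were dropped, which left 40481 genes. The fit ran on the whole table with edgeR 4.0.16 in R 4.3.3 (filterByExpr by genotype, the trimmed mean of M values (TMM), robust glmQLFit and glmQLFTest), which tested 14778 genes. The FDR is the p-value after Benjamini-Hochberg adjustment over all of these genes, and a gene was called at an FDR below 0.05. Standard errors were obtained from the quasi-likelihood F statistic, as the absolute log2 fold change over its root. A positive log2 fold change means higher in *Scd2-m/-m*. Coordinates, exonic lengths and overlaps come from GENCODE M21 (GRCm38). The fit was tested on simulated counts.

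Alternatives were RLE and upper-quartile factors, DESeq2 1.42.0, limma-voom (limma 3.58.1), the same with quality weights, 3 further count filters, halved counts, the replicate number as a block, each library left out, and other thresholds. The members and gene lists were chosen with earlier results of these data known. Values in every library are given for called members and for *Tgfb1*, *Tgfbr1*, *Tgfbr2*, *Bmpr2*, *Smad2*, *Smad3* and *Smad4*, and of the wider pathway list up to 5 called genes in each direction with the smallest p are named. The depth was 46285176 to 57629638 counts per library. Intervals were not computed for single libraries, and the spread between 3 libraries sets the precision.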

Additional observations from a re-analysis of the deposited data

How the results depend on the processing

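The calls among the members were 16 of 32 (50%) with RLE factors (all genes 17.5%) or upper-quartile factors (all genes 17.2%). With halved counts they were also 16 of 32 (all genes 19.2%), 2 higher and 14 lower. A filter of 1 CPM in 3 libraries, which left *Id1* untested, gave 16 of 29 (55.2%, all genes 21.1%). With at least 10 counts in every library they were 17 of 32 (53.1%, all genes 18.5%). They were 18 of 32 (56.25%, all genes 17.0%) in limma-voom and 19 of 32 (59.4%, all genes 18.3%) in DESeq2. With every gene that had a count they were 20 of 35 (57.1%, all genes 11.8%). In limma-voom with quality weights they were 23 of 32 (71.9%, all genes 30.5%). They were 4 (12.5%, all genes 9.01%) at an FDR below 0.01. They were 3 (9.38%, all genes 2.84%) at an FDR below 0.05 with an absolute log2 fold change above 1 also asked for. Leaving out 1 library gave 5 to 18 calls. The lowest was 5 of 32 (15.6%, all genes 9.53%) without *Scd2-m/-m* replicate 2. The next was 6 of 33 (18.2%, all genes 9.83%) without wild-type replicate 2. The highest was 18 of 33 (54.5%, all genes 15.1%) without wild-type replicate 3. The 9 calls of the wider pathway list were 15 (34.1%, all genes 30.5%) in limma-voom with quality weights. They were 5 (11.4%, all genes 9.01%) at an FDR below 0.01 and 3 (6.82%, all genes 2.84%) with the fold threshold. With 1 library left out they were 6 to 11. The 2585 calls over all genes were 4507, 1331 and 420 under those settings and 1440 to 2567 with 1 library left out. In all these the fits without a library have fewer samples, and otherwise the cause was not tested.

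*Scd2* had a log2 fold change of -0.62 in limma-voom and -0.82 in limma-voom with quality weights, both past the threshold, and -0.83 to -0.48 with 1 library left out, past the threshold without *Scd2-m/-m* replicate 1. With 1 library left out *Tgfbr2* ranged from -0.1337 to 0.0048, above 0 without wild-type replicate 3, and *Bmpr2* from -0.1074 to 0.0202, above 0 without *Scd2-m/-m* replicate 1. Under the other normalizations, tools, filters, halved counts and the block, at an FDR below 0.05, 15 of the 16 called members kept their call wherever they were tested, *Smurf2* being the exception. Of the uncalled members, *Bmp2* passed in 5 of these 10 settings (FDR 8.68e-06 to 0.0806 over all 10). *Smad7* passed in 6, *Smad6* in 4, *Tgfbr1* in 2, *Id2* and *Smad2* in 1 each, and *Tgfbr2*, *Bmpr2* and *Smad4* in 0. *Tgfbr3* passed in 3 of the 9 that tested it (FDR 0.0358 to 0.0617). *Pmepa1* lost its call in limma-voom with quality weights (-0.61, FDR 0.115) and *Ltbp2* with every gene that had a count (FDR 0.0799).

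Deviations of same-numbered libraries from the mean of their group correlated at 0.053, -0.020 and 0.040. Those of differently numbered libraries correlated at -0.074 to 0.041. With 3 libraries in a group these values cannot decide whether the shared numbers pair the libraries. With the replicate number as a block, 19 of 32 members (59.4%) and 13 of 44 genes of the wider list (29.5%) were called. Over all genes 2975 of 14778 (20.1%) were called with this block. Low counts limit *Id1*, *Tgfb3* and *Tgfbr3*, and *Tgfb2*, *Inhba* and *Ltbp1* could not be tested.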
